A study of Mus musculus with 27 samples.

Results

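Autosomal genes that respond to doxycycline (Dox) were described in TX1072 mouse embryonic stem cells, and the 9 genes considered were Duox1, Atp2a3, Atp6v0a4, Tfap2a, Prph, Map1a, Vat1l, Rasgrp2 and Ppp1r14d. They were selected on their counts in the BglG-GFP line, where their RNA was higher with Dox than untreated, from 17608 autosomal genes tested. The Dox and untreated libraries of that line therefore chose them and give no test of them. Total RNA was sequenced in 27 libraries, from the BglG-GFP-SPOC line (5 libraries per treatment) and the BglG-GFP line (4 per treatment). Both lines carry a degron on SPEN (SPEN-AID) and derive from an F1 embryo of a BL/6J by CAST-EiJ cross. In the Dox+Auxin groups cells had 12 h of auxin and then 24 h of doxycycline and auxin together, in the Dox groups they had 24 h of doxycycline at 1 µg/mL, and the untreated groups had neither. Every group grew in serum-containing medium with LIF and the inhibitors CHIR99021 and PD0325901. The labels do not say whether a line is 1 clone. No group had auxin alone and none had Dox without the inducible Xist, so effects of auxin itself cannot be told apart from SPEN loss, nor effects of doxycycline itself from Xist RNA.

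TX1072 cells carry a doxycycline-responsive promoter at the endogenous Xist gene of a single X chromosome, so Dox starts X-chromosome silencing without differentiation. Xist RNA coats the chromosome it is made from, and SPEN, an RNA-binding repressor, is needed for most of the silencing; its SPOC domain recruits corepressors. BglG is a bacterial protein that binds an RNA stem-loop and can carry a fused protein, here GFP or GFP with SPOC, to an RNA that holds that loop. With auxin, a protein with an AID degron is degraded, so that in the GFP line Xist acts without SPEN and in the SPOC line without SPEN but with the tethered SPOC domain. The 9 genes lie outside the X chromosome and share no single pathway. They encode an oxidase (Duox1), a calcium pump (Atp2a3), a proton pump subunit (Atp6v0a4), a transcription factor (Tfap2a), cytoskeletal proteins (Prph, Map1a), a VAT1-like protein (Vat1l), a Rap activator (Rasgrp2) and a phosphatase inhibitor (Ppp1r14d).

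Total counts per library lay between 28936459 and 45489094. Levels are counts-per-million values (CPM) of the normalised library. Xist lay between 290 and 415 CPM with Dox+Auxin, between 308 and 458 CPM with Dox and at 1.03 to 1.69 CPM in 4 of the 5 untreated SPOC libraries; in the fifth, the library labelled SPOC untreated replicate 2, it was at 178 CPM, and whether that library is mixed or mislabelled cannot be told apart here. In the GFP line Xist lay between 382 and 630 CPM with Dox+Auxin, between 747 and 918 CPM with Dox and between 5.43 and 7.82 CPM untreated. Tsix, the antisense partner of Xist, did not pass the test with Dox in either line (log2 fold changes of 0.18 ± 0.18 in SPOC and 0.31 ± 0.20 in GFP cells, SE). Spen RNA was higher with Dox+Auxin than with Dox in both lines, at 1052 ± 114 against 353 ± 15.0 CPM in the SPOC line (SD, n = 5 each) and 860 ± 223 against 197 ± 15.4 CPM in the GFP line (SD, n = 4 each). Untreated cells averaged 343 CPM in the SPOC and 174 CPM in the GFP line. The part of reads from the BglG-GFP-SPOC construct in the Spen counts was not tested. The degron acts on the protein, which RNA does not measure. The 8 embryonic stem cell markers, Pou5f1 and Nanog among them, averaged at least 1 CPM in every group. Their sum was 5200 to 5634 CPM with Dox+Auxin, 5575 to 5979 CPM with Dox and 5494 to 5769 CPM untreated in the SPOC line, and 4979 to 5243, 5730 to 5870 and 5459 to 5663 CPM in these groups of the GFP line, where the Dox+Auxin libraries were the lowest and the Dox libraries the highest. The 6 trophoblast markers summed to 33.0 to 35.6 CPM with Dox+Auxin, 22.4 to 28.8 CPM with Dox and 31.2 to 37.8 CPM untreated in the SPOC line, and to 34.0 to 41.7, 20.1 to 23.3 and 23.1 to 30.4 CPM in the GFP line. The Dox libraries thus lay below all untreated ones in the SPOC line and overlapped them in the GFP line. Cdx2, a trophoblast regulator, averaged 18.2 CPM with Dox+Auxin, 9.43 CPM with Dox and 16.0 CPM untreated in SPOC cells, and in GFP cells it was likewise lowest with Dox, at 8.59 CPM, and highest with Dox+Auxin, at 22.3 CPM. Eomes and Hand1 were also lowest with Dox in both lines, Eomes at 12.2 CPM against 12.4 with Dox+Auxin and 12.7 untreated in SPOC cells. Gata3 was instead lowest with Dox+Auxin, at 1.67 CPM in SPOC and 1.40 CPM in GFP cells, and highest untreated, at 3.55 and 2.55 CPM. Krt7 was lowest untreated in both lines, and Elf5 was lowest with Dox+Auxin in SPOC and with Dox in GFP cells. The 5 primitive endoderm markers summed to 6.78 to 11.9 CPM per library. Of the 6 fibroblast markers Thy1, Col1a1 and Col1a2 were above 1 CPM in every group and Col3a1, Postn and Lum under 0.1 CPM, with sums of 23.4 to 29.9 CPM with Dox+Auxin, 30.1 to 35.5 CPM with Dox and 28.0 to 32.5 CPM untreated in the SPOC line and 25.0 to 27.3, 34.2 to 36.8 and 33.9 to 35.3 CPM in the GFP line. Neurog2 and Dcx of 8 neural markers and Tg, Nkx2-1 and Scgb1a1 of 7 thyroid and airway markers were under 0.1 CPM, while Tubb3 averaged 83.7 to 118 CPM and Slc5a5 0.780 to 1.33 CPM over the groups. The part of these markers in the changes of the 9 genes was not tested.

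The values that chose the genes were these. In the GFP line all 9 were higher in every Dox library than in every untreated library, by log2 fold changes of 1.12 to 4.13, where 10.1% of the 18363 genes tested were called higher and 13.4% had all Dox libraries above all untreated ones. Among 1592 autosomal genes that were called, averaged at least 1 CPM and did not overlap, they held ranks 1 to 9 by fold change. Ppp1r14d was the last inside, at a log2 fold change of 1.12, and Crmp1 and Nfe2 came next outside, at 1.08 and 1.07. Another 26 autosomal genes with a larger fold change than Ppp1r14d averaged under 1 CPM. The 9 genes were weakly expressed, with means over all libraries of 1.21 CPM (Vat1l) to 6.50 CPM (Rasgrp2), apart from Map1a at 28.0 CPM. Per kilobase of exon the means ran between 0.221 CPM (Vat1l) and 3.00 CPM (Ppp1r14d). In bulk RNA, a change in the number of cells that hold a transcript and a change in the amount per cell cannot be told apart.

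**Figure D1:**
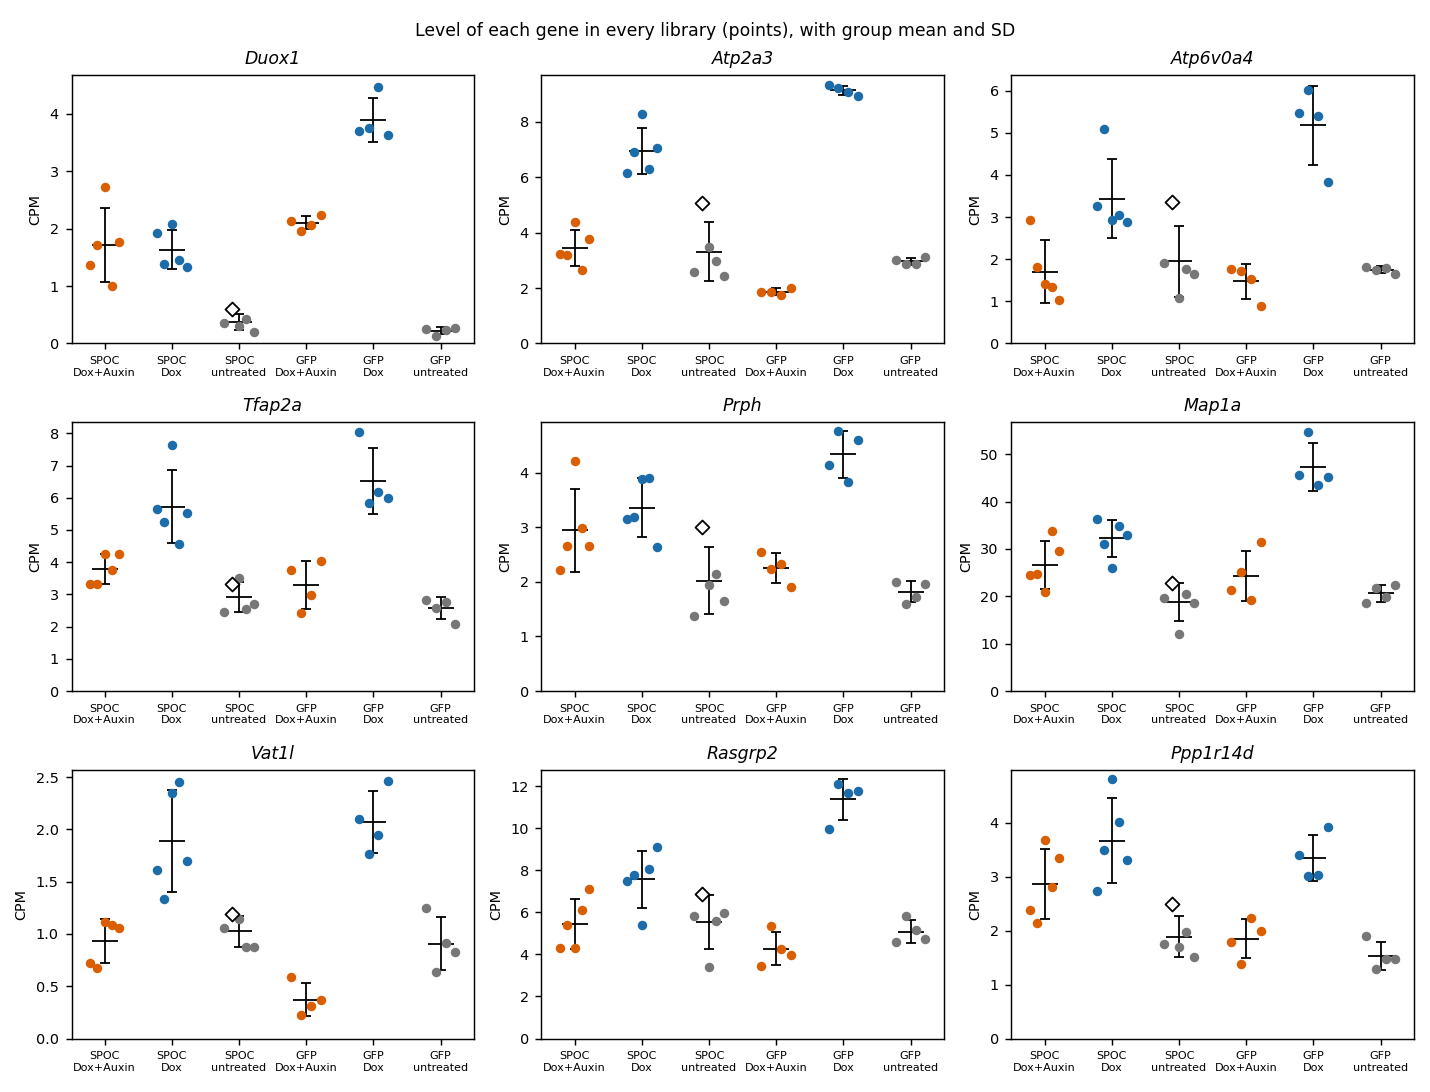
CPM of each of the 9 genes (vertical axes, from 0) in every library of the 6 groups (points), with the group mean and SD as bars; the open diamond is the library labelled SPOC untreated replicate 2. In the GFP line the 4 Dox libraries stand above the 4 untreated ones in every panel, and for Duox1 the Dox+Auxin libraries of both lines also stay above the untreated ones.

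The start regions of 5 of the genes are shown here because they differ in whether they hold the palindrome of AP-2, the transcription factor family of Tfap2a. Each covers 250 bases before to 50 bases after the start (RefSeq, GRCm38.p6), and capitals mark matches to GCCNNNGGC, which reads the same on both strands. The lines give Duox1 (chr2:122315422-122315721, plus strand), Atp2a3 (chr11:72960919-72961218, plus), Map1a (chr2:121289352-121289651, plus), Prph (chr15:99054924-99055223, plus) and Ppp1r14d (chr2:119229816-119230115, minus).
Duox1: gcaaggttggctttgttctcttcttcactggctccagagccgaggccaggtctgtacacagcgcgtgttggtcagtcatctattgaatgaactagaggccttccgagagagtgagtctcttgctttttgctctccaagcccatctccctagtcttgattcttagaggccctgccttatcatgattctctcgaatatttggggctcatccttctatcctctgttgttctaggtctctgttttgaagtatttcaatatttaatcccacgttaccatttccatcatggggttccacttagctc
Atp2a3: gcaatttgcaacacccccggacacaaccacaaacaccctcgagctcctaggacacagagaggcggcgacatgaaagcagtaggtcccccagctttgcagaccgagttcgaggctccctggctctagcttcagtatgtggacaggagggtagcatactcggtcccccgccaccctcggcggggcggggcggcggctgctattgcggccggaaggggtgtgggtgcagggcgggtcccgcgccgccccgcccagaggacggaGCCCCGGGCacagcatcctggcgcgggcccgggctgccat
Map1a: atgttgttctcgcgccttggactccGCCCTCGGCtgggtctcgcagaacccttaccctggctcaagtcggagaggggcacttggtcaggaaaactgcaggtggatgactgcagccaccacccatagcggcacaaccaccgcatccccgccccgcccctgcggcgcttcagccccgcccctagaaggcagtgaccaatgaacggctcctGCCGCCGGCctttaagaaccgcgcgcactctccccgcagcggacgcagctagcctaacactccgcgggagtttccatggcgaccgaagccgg
Prph: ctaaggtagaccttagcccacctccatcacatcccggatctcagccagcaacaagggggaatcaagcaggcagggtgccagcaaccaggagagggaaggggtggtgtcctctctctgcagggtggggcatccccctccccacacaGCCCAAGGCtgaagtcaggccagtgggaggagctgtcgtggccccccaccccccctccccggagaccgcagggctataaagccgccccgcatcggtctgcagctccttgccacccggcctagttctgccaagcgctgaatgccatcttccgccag
Ppp1r14d: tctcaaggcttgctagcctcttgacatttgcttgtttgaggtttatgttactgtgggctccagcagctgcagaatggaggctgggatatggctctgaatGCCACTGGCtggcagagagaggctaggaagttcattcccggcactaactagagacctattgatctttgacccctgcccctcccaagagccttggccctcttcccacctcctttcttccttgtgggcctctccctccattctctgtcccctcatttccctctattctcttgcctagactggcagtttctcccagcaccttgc
The first AP-2 match began at base 11 after the start in Atp2a3 and at -105 in Prph, -151 in Ppp1r14d and -225 in Map1a, which had another at -42. All 9 genes had an entry, and Tfap2a and Rasgrp2 had a second one. The palindrome was in 4 of the 11 entries and in 16.6% of 32851 promoters. TGGGAA, the core bound by RBPJ, was in 4 entries (Atp6v0a4, Ppp1r14d, Rasgrp2, Tfap2a) and 25.6% of promoters, on either strand. The GC box GGGCGG was in 7 entries, of 5 genes, and in 35.7% of promoters, TATAAA in Prph alone and 13.6% of promoters, and CCAAT in Map1a alone and 37.4% of promoters. CpG content also ran wide, with 1 CpG in the windows of Ppp1r14d and Atp6v0a4, 6 in that of Duox1 and 40 in a Rasgrp2 window, against a median of 7 over all promoters. No motif of the 5 searched was in all 9 genes.

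With Dox in the SPOC line, whose libraries did not choose the genes, 8 of the 9 rose against the untreated SPOC libraries, while 6.16% of all genes tested were called higher. With the replicate number as a block all 9 rose, and 2042 rather than 1132 genes were called higher. The median log2 fold change of the 9 was 0.87, against -0.0012 over all genes tested. Duox1 rose most, 4.28-fold, and Atp2a3, Tfap2a and Ppp1r14d rose 2.09-, 1.97- and 1.94-fold. Rasgrp2 did not pass the test, at a log2 fold change of 0.44 ± 0.16 (SE; adjusted p = 0.058). In 6 of the 9 every Dox library stood above every untreated one, as in 4.6% of all genes. Across all autosomal genes, 770 were called higher in both lines, which was 68.1% of the 1130 called in the SPOC line and 41.7% of the 1848 called in the GFP line. Every one of the 9 log2 fold changes was smaller in the SPOC than in the GFP line, by 0.17 (Ppp1r14d) to 2.03 (Duox1); the genes were chosen for high GFP values, so that order was not tested. Xist was also lower with Dox in the SPOC line, at 385 ± 62.3 CPM (SD, n = 5), than in the GFP line, at 840 ± 88.1 CPM (SD, n = 4), and its part in the smaller changes was not tested.

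Whether the rise needs SPEN was asked by adding auxin, which acts on the SPEN degron. In the SPOC line the tethered SPOC domain stays under auxin, so a level kept there does not show a rise without SPOC. Only the GFP line lacks both under auxin, and its values are a description. Against Dox alone in the SPOC line, 5 of the 9 were called lower with Dox+Auxin (Atp2a3, Vat1l, Atp6v0a4, Tfap2a and Rasgrp2), with 15.4% of all genes called lower. With the replicate number as a block Map1a and Ppp1r14d were called as well, while the count over all genes stayed within 1.5 times. Same-numbered libraries of these groups correlated above 0.1 in 4 of 5 pairs. For Atp2a3, Vat1l and Tfap2a the libraries did not overlap, as for 8.51% of all genes. Duox1 did not pass that test and stood at a log2 fold change of 0.07 ± 0.19 (SE; adjusted p = 0.83; 2 SE on either side span -0.32 to 0.45). Against the untreated SPOC libraries, 5 of the 9 were still higher with Dox+Auxin (Duox1, Ppp1r14d, Prph, Map1a and Tfap2a), with 16.7% of all genes called higher; Duox1 was 4.49-fold higher and the others 1.30- to 1.51-fold. That count was 3 of the 9 without SPOC untreated replicate 1, without SPOC Dox+Auxin replicate 3 or without replicate 4 of that group, and also with only the groups compared in the fit. Over all genes, fits that left out 1 library called 2747 to 2967 higher, against 3061 in the main fit. Duox1 alone of the 9 had every Dox+Auxin library above every untreated one, as did 9.9% of all genes. In the GFP line all 9 were lower in every Dox+Auxin library than in every Dox library, as were 19.9% of all genes, by log2 fold changes of -0.84 to -2.42. These GFP values share the Dox libraries that chose the genes and are given as a description. Xist was also lower in every Dox+Auxin than in every Dox library of the GFP line, at 500 ± 109 against 840 ± 88.1 CPM (SD, n = 4 each). That difference did not pass the test (log2 fold change -0.75 ± 0.78, SE, adjusted p = 0.46). The SE rests on a spread shared by all 6 groups, including SPOC untreated replicate 2 with Xist at 178 CPM. The rest of that group had 1.03 to 1.69 CPM, so the test cannot decide whether Xist differed between these GFP groups. In the SPOC line Xist was at 338 ± 48.2 against 385 ± 62.3 CPM (SD, n = 5 each). The part of Xist level in the lower values with auxin was not tested. Against untreated GFP cells, Duox1 was the only one of the 9 with all Dox+Auxin libraries higher, and Atp2a3 and Vat1l had all of them lower, where 18.7% and 17.1% of all genes did so.

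**Figure D2:**
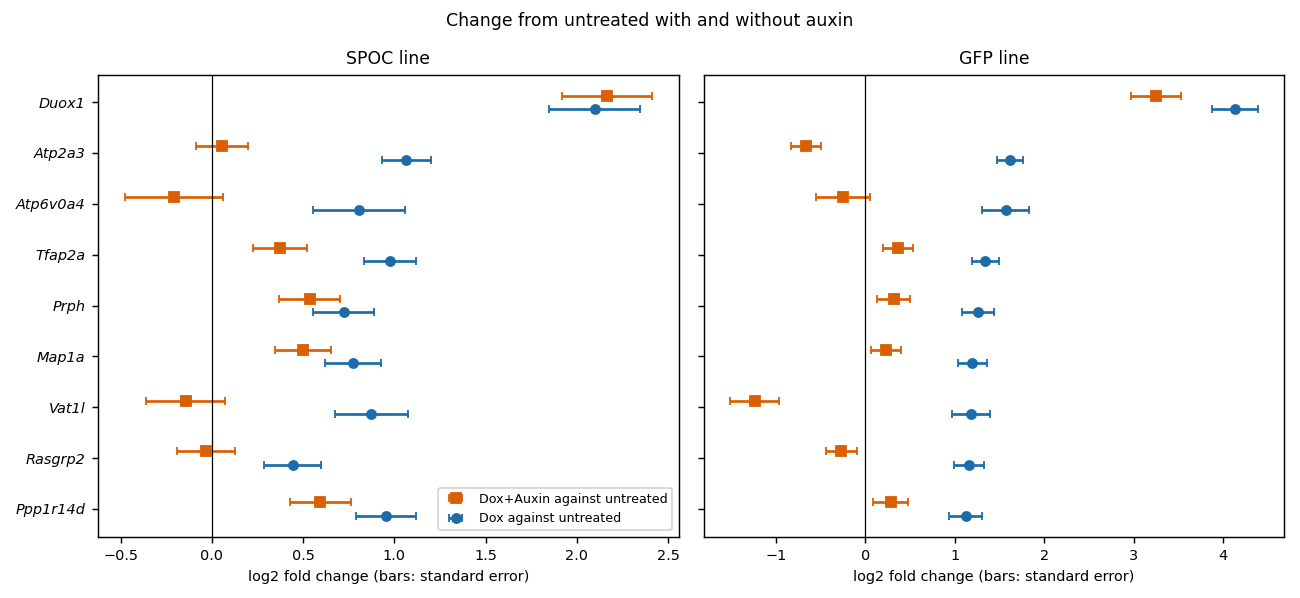
Log2 fold change against untreated cells (horizontal axes, on different scales; bars, SE) for Dox+Auxin (squares) and Dox (circles), in the SPOC line (left) and the GFP line (right). For Duox1 the Dox+Auxin and Dox values are 2.17 and 2.10 in the SPOC line and 3.25 and 4.13 in the GFP line; for Vat1l they are -0.14 and 0.87 in the SPOC line and -1.24 and 1.19 in the GFP line.

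Duox1 (chr2:122315672-122347972, plus strand) encodes a dual oxidase, a membrane enzyme that makes hydrogen peroxide and is best known in thyroid and airway epithelium. In the SPOC line it had 1.37, 1.72, 2.72, 0.995 and 1.76 CPM with Dox+Auxin, 1.92, 1.39, 2.09, 1.46 and 1.34 CPM with Dox, and 0.352, 0.593, 0.313, 0.421 and 0.194 CPM untreated. Every Dox and every Dox+Auxin library stood above every untreated one, and the 2 treated groups overlapped. The rise with Dox was 2.10 ± 0.25 on the log2 scale (SE; adjusted p = 3.3e-07) and that with Dox+Auxin was 2.17 ± 0.25 (SE; adjusted p = 5.0e-08). GFP cells had 2.14, 1.97, 2.07 and 2.24 CPM with Dox+Auxin, 3.70, 3.76, 4.47 and 3.64 CPM with Dox, and 0.249, 0.131, 0.235 and 0.269 CPM untreated. These 3 groups did not overlap, and the Dox+Auxin libraries lay between the others, with 51.4% of the difference between the Dox and untreated means. In the SPOC line the Dox+Auxin mean was at 106% of that difference. The counts behind the untreated values were low, 6 to 20 reads per library in the SPOC line and 6 to 11 in the GFP line. By Pearson's r of log2 CPM, the genes most like Duox1 over the 27 libraries, which share 6 groups and include the GFP libraries that chose it for its rise with Dox, were Xist (r = 0.92), Shf (0.89), Capns1 (0.89), Sgcb (0.88) and Prr13 (0.88). Over the 15 SPOC libraries they were Tmc6 (r = 0.95), Rtel1 (0.95), Mtus1 (0.94), Fbrsl1 (0.94) and Pqlc3 (0.93), and Xist was at rank 10 of 14208 genes (r = 0.92). Of the other 8 genes, Ppp1r14d came nearest over the SPOC libraries, at rank 127 (r = 0.83), and Rasgrp2 was farthest, at rank 4941 (r = 0.22). Over the 27 libraries Prph came nearest, at rank 65 (r = 0.79), and Vat1l was farthest, at rank 4347 (r = 0.20).

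RNA of the maturation factor of DUOX1 and of related DUOX genes was barely detected. Duoxa1, the maturation factor of DUOX1, had 0 to 4 reads per library and group means of at most 0.084 CPM. Its few reads summed to 4 with Dox+Auxin, 10 with Dox and 2 untreated in the SPOC line, and to 5, 12 and 2 in the GFP line. Duoxa2, the partner of DUOX2, had 0 to 2 reads, and Duox2, the other dual oxidase, had 0 to 5 reads. None of the 3 passed the filter on low counts, so none was tested. Of 16 genes listed for the DUOX and NADPH oxidase family 9 were tested, and with Dox none passed the test in the SPOC line, while 1 was higher and 1 lower in the GFP line. Of all genes tested, 6.16% were higher and 7.33% lower in the SPOC line and 10.1% higher and 10.8% lower in the GFP line. The list's median log2 fold changes were -0.11 in SPOC and -0.22 in GFP cells, against -0.0012 and -8.7e-04 over all genes tested, which are the medians to set beside those of the lists that follow.

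Atp2a3 (chr11:72961169-72993044, plus strand) encodes SERCA3, a pump that moves calcium into the endoplasmic reticulum. Its SPOC libraries had 3.23, 3.18, 4.38, 2.66 and 3.78 CPM with Dox+Auxin, 6.17, 6.91, 8.26, 6.30 and 7.05 CPM with Dox, and 2.59, 5.07, 3.48, 2.98 and 2.43 CPM untreated. The 5 Dox libraries were above all others of the line, and the Dox+Auxin libraries overlapped the untreated ones. It rose 2.09-fold with Dox (log2 fold change 1.07 ± 0.13, SE; adjusted p = 9.3e-07) and was 0.496-fold with Dox+Auxin against Dox (adjusted p = 6.2e-07). The GFP libraries had 1.86, 1.87, 1.74 and 2.02 CPM with Dox+Auxin, 9.33, 9.21, 9.08 and 8.94 CPM with Dox, and 3.02, 2.86, 2.87 and 3.13 CPM untreated. There the Dox+Auxin libraries were below the untreated ones as well, at a log2 fold change of -0.66 ± 0.17 (SE). Between the lines under Dox+Auxin, Atp2a3 was 1.84-fold higher in SPOC cells (adjusted p = 2.0e-04).

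Atp6v0a4 (chr6:38048483-38124586, minus strand) encodes an a subunit of the vacuolar proton pump, known from acid-secreting cells of the kidney. It averaged 1.70 ± 0.743 CPM with Dox+Auxin, 3.44 ± 0.927 CPM with Dox and 1.95 ± 0.844 CPM untreated in the SPOC line (SD, n = 5 each). The untreated libraries reached 3.35 CPM and so overlapped those with Dox, whose lowest was 2.89 CPM. It rose 1.75-fold with Dox (adjusted p = 0.031) and was 0.495-fold with Dox+Auxin against Dox (adjusted p = 0.0029). The call with Dox was the least stable of the 8: its adjusted p lay between 5.5e-04 and 0.11 over 15 alternatives and it was called in 8 of them, and it was lost without SPOC untreated replicate 1, 3, 4 or 5 or SPOC Dox replicate 2. Its GFP means were 1.47 ± 0.406 CPM with Dox+Auxin, 5.18 ± 0.940 CPM with Dox and 1.75 ± 0.0785 CPM untreated (SD, n = 4 each). Its exons share 259 bases with D630045J12Rik on the same strand and 62 with Tmem213 on the other, and the labels do not say how such reads were assigned.

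Paralogues of both pumps are named here after their values were seen. Per kilobase of exon, Atp2a3 averaged 0.872 CPM, against 85.3 CPM for Atp2a2, the common calcium pump, and 0.034 CPM for Atp2a1, the pump of fast muscle, which did not pass the filter on low counts. Atp2a2 differed with Dox by 0.02 ± 0.03 on the log2 scale in the SPOC line and by 0.09 ± 0.03 in the GFP line (SE; adjusted p = 0.73 and 0.032). Atp6v0a4 averaged 0.514 CPM per kilobase, against 4.84, 7.01 and 2.77 CPM for Atp6v0a1, Atp6v0a2 and Tcirg1, the other a subunits. Atp6v0a1 was called higher with Dox in SPOC cells, by 0.14 ± 0.04 on the log2 scale (SE; adjusted p = 0.031), but not in GFP cells (0.04 ± 0.05, SE; adjusted p = 0.67), and the other two did not pass the test in either line. Of 23 genes listed for calcium pumps and store channels 20 were tested, and with Dox none was higher and 2 were lower in the SPOC line, and 3 were higher and 2 lower in the GFP line, where 6.16% of all genes were higher and 7.33% lower in the SPOC line and 10.1% and 10.8% in the GFP line; the list medians were 0.02 and -0.0087. The fallen genes of both lines were Atp2b3, an X-linked plasma membrane calcium pump (-0.60 in SPOC and -1.31 in GFP cells), and Stim1, a calcium sensor of the endoplasmic reticulum (-0.16 and -0.24). Of 24 proton pump genes 20 were tested, with 1 higher and 1 lower in the SPOC line and 1 higher and 3 lower in the GFP line, at the same shares over all genes and list medians of -0.01 and 0.0019. The X-linked accessory subunit gene Atp6ap1 fell in both lines, by 0.30 in SPOC and 0.53 in GFP cells on the log2 scale.

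Tfap2a (chr13:40715302-40738376, minus strand) encodes AP-2 alpha, a transcription factor of surface ectoderm and neural crest. SPOC cells had 3.31, 3.33, 4.26, 3.75 and 4.24 CPM with Dox+Auxin, 5.65, 5.24, 7.63, 4.57 and 5.53 CPM with Dox, and 2.46, 3.32, 3.51, 2.56 and 2.72 CPM untreated. The Dox libraries were above all libraries of the other groups of the line, and the Dox+Auxin and untreated libraries overlapped. It rose 1.97-fold with Dox (adjusted p = 9.8e-06), was 0.658-fold with Dox+Auxin against Dox (adjusted p = 0.0010), and was 1.30-fold with Dox+Auxin against untreated (adjusted p = 0.0499). That last call sat at the threshold and was kept in 8 of 15 alternatives, with adjusted p between 0.011 and 0.12; it was lost without SPOC untreated replicate 1, 4 or 5 or SPOC Dox+Auxin replicate 3, 4 or 5. Tfap2a in GFP cells averaged 3.29 ± 0.735 CPM with Dox+Auxin, 6.53 ± 1.03 CPM with Dox and 2.57 ± 0.345 CPM untreated (SD, n = 4 each). Per kilobase of exon Tfap2a averaged 0.843 CPM, against 21.6 CPM for its paralogue Tfap2c, which did not pass the test with Dox in either line. Among 19 genes of the AP-2 family, surface ectoderm and neural crest 13 were tested, and with Dox 1 was higher and none lower in the SPOC line (6.16% and 7.33% of all genes), and 1 higher and 3 lower in the GFP line (10.1% and 10.8%), with list medians of -0.25 and -0.30. The one higher in both was Foxd3, a neural crest and pluripotency factor (0.29 in SPOC and 0.31 in GFP cells), which with Dox+Auxin was lower than with Dox by 0.75 in SPOC and 1.71 in GFP cells on the log2 scale (adjusted p = 2.4e-08 and 3.8e-14).

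Prph (chr15:99055174-99058978, plus strand) encodes peripherin, an intermediate filament protein of peripheral neurons. Its SPOC levels were 2.21, 2.65, 4.21, 2.98 and 2.66 CPM with Dox+Auxin, 3.15, 3.19, 3.89, 3.91 and 2.64 CPM with Dox, and 1.37, 3.00, 1.95, 2.14 and 1.65 CPM untreated. The Dox and untreated groups overlapped, through the single untreated library at 3.00 CPM and the Dox library at 2.64 CPM. It rose 1.65-fold with Dox (adjusted p = 0.0030) and was 1.45-fold with Dox+Auxin against untreated (adjusted p = 0.013), and Dox+Auxin against Dox did not pass the test (log2 fold change -0.19 ± 0.16, SE; adjusted p = 0.40). Prph in GFP cells averaged 2.25 ± 0.269 CPM with Dox+Auxin, 4.33 ± 0.424 CPM with Dox and 1.82 ± 0.192 CPM untreated (SD, n = 4 each).

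Map1a (chr2:121289600-121310832, plus strand) encodes a microtubule-associated protein of neurons. SPOC libraries had 24.5, 24.6, 20.8, 33.8 and 29.5 CPM with Dox+Auxin, 36.2, 31.1, 26.0, 34.8 and 33.0 CPM with Dox, and 19.6, 22.8, 12.1, 20.6 and 18.7 CPM untreated. All Dox libraries were above all untreated ones, while those with Dox+Auxin overlapped both groups. It rose 1.71-fold with Dox (adjusted p = 0.0012) and was 1.42-fold with Dox+Auxin against untreated (adjusted p = 0.015), and Dox+Auxin against Dox did not pass the test (-0.27 ± 0.15, SE; adjusted p = 0.17). With the replicate number as a block Map1a was called lower there, at an adjusted p of 0.042 (0.042 to 0.36 over 16 alternatives). Map1a in GFP cells averaged 24.3 ± 5.33 CPM with Dox+Auxin, 47.2 ± 5.05 CPM with Dox and 20.6 ± 1.76 CPM untreated (SD, n = 4 each). The Dox+Auxin against untreated calls of Prph and Map1a were kept in 12 and 13 of 15 alternatives; that of Prph was lost without SPOC untreated replicate 1 or SPOC Dox+Auxin replicate 3, and that of Map1a without SPOC Dox+Auxin replicate 4.

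Map1a overlaps Ppip5k1, an inositol phosphate kinase gene on the other strand, by 272 exonic bases, 2.24% of its exons, and without a known strand setting reads from there cannot be assigned. Ppip5k1 itself was higher with Dox in both lines, by 0.47 in SPOC and 0.48 in GFP cells on the log2 scale. Of 20 genes of the neuronal cytoskeleton, all tested, 4 were higher and 2 lower with Dox in the SPOC line (6.16% and 7.33% of all genes) and 7 higher and 3 lower in the GFP line (10.1% and 10.8%), with list medians of 0.09 and 0.03. Des, the muscle filament desmin, was higher by 0.39 and 0.66, and Stmn2, a microtubule regulator of neurons, by 0.26 and 0.30 in SPOC and GFP cells. Nes, the progenitor filament nestin, fell, with log2 fold changes of -0.28 and -0.20, and so did Map6, a microtubule stabiliser, with -0.19 and -0.22. The neural markers summed to 99.7 to 131 CPM with Dox and 94.0 to 126 CPM untreated in the SPOC line, and to 114 to 139 CPM with Dox and 92.4 to 106 CPM untreated in the GFP line. Most of each sum was Tubb3, and the part of these markers in the change of Prph and Map1a was not tested.

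Vat1l (chr8:114205612-114374071, plus strand) encodes a protein named for its likeness to the synaptic vesicle protein VAT1. Its levels in SPOC cells were 0.726, 0.676, 1.12, 1.08 and 1.05 CPM with Dox+Auxin, 1.61, 1.33, 2.35, 2.45 and 1.70 CPM with Dox, and 1.05, 1.19, 1.15, 0.873 and 0.873 CPM untreated. The Dox libraries were above all others of the line. It rose 1.83-fold with Dox (adjusted p = 0.0025) and was 0.494-fold with Dox+Auxin against Dox (adjusted p = 1.7e-04). Its levels in GFP cells were 0.587, 0.226, 0.308 and 0.369 CPM with Dox+Auxin, 2.10, 1.76, 1.94 and 2.46 CPM with Dox, and 1.25, 0.633, 0.918 and 0.832 CPM untreated. There the Dox+Auxin libraries were below every untreated one, at a log2 fold change of -1.24 ± 0.28 (SE), on 7 to 23 reads per library. Under Dox+Auxin it was 2.43-fold higher in SPOC than in GFP cells, with no overlap (adjusted p = 7.7e-04). None of 5 genes of the VAT1 family passed the test with Dox in the SPOC line, where 6.16% of all genes were higher and 7.33% lower, and 1 was higher in the GFP line, where 10.1% were; the list medians were 0.11 and 0.09.

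Rasgrp2 (chr19:6399340-6415216, plus strand) encodes CalDAG-GEFI, a calcium-regulated activator of the small GTPase Rap1 known from platelets. Levels in the SPOC libraries were 4.30, 5.41, 4.32, 6.09 and 7.09 CPM with Dox+Auxin, 7.47, 7.80, 5.39, 8.05 and 9.08 CPM with Dox, and 5.82, 6.85, 3.41, 5.60 and 5.98 CPM untreated. The library of replicate 3 was the lowest with Dox and untreated, and the Dox and untreated groups overlapped through the Dox library of that number. With Dox the log2 fold change was 0.44 ± 0.16 (SE; adjusted p = 0.058), with 2 SE on either side spanning 0.13 to 0.75. Without SPOC Dox replicate 3 it was called, at 0.55 ± 0.15 (SE; adjusted p = 0.016; between 2.2e-04 and 0.17 over 15 alternatives). With the replicate number as a block, which pairs the same-numbered Dox and untreated SPOC libraries, it was called as well, at 0.45 ± 0.08 (SE; adjusted p = 2.2e-04). With Dox+Auxin it was lower than with Dox, at 0.719-fold (adjusted p = 0.019), a call lost without SPOC Dox replicate 5 or SPOC Dox+Auxin replicate 1 or 3. Rasgrp2 in GFP cells averaged 4.26 ± 0.784 CPM with Dox+Auxin, 11.4 ± 0.965 CPM with Dox and 5.08 ± 0.545 CPM untreated (SD, n = 4 each), the Dox libraries above all others. Of 15 RasGRP and Rap genes, all tested, 4 were higher and none lower with Dox in the SPOC line (6.16% and 7.33% of all genes) and 7 were higher and 1 lower in the GFP line (10.1% and 10.8%), with list medians of 0.02 and 0.04. Rasgrp4 and Rasgrp1, of the same family of Ras and Rap activators, were higher by 0.34 and 0.33 in SPOC cells and by 0.43 and 0.39 in GFP cells, and Nras, a Ras GTPase, by 0.10 in SPOC and 0.13 in GFP cells. Rasgrp3, of the same family and named after its values were seen, went the other way. It was at -0.31 ± 0.14 in SPOC and -0.54 ± 0.14 in GFP cells (SE, adjusted p = 0.13 and 0.0056).

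Ppp1r14d (chr2:119218119-119229906, minus strand) encodes an inhibitor of protein phosphatase 1. The SPOC libraries had 2.38, 2.14, 3.69, 2.81 and 3.34 CPM with Dox+Auxin, 2.74, 3.50, 4.81, 4.01 and 3.31 CPM with Dox, and 1.76, 2.49, 1.70, 1.99 and 1.52 CPM untreated. All Dox libraries were above all untreated ones. It rose 1.94-fold with Dox (adjusted p = 1.1e-04) and was 1.51-fold with Dox+Auxin against untreated (adjusted p = 0.0063); Dox+Auxin against Dox did not pass the test (-0.36 ± 0.15, SE; adjusted p = 0.076), but did without SPOC Dox replicate 1 or SPOC Dox+Auxin replicate 3 (-0.44 and -0.47; adjusted p = 0.032 and 0.023; 0.023 to 0.27 over 16 alternatives). The fit with the replicate number as a block called that difference too. Ppp1r14d in GFP cells averaged 1.85 ± 0.360 CPM with Dox+Auxin, 3.35 ± 0.428 CPM with Dox and 1.53 ± 0.257 CPM untreated (SD, n = 4 each). Its log2 fold change with Dox was the most alike in the lines, at 0.95 ± 0.16 in SPOC and 1.12 ± 0.18 in GFP cells (SE). Among 14 genes of PP1 inhibitors and the myosin phosphatase, all tested, none passed with Dox in the SPOC line (6.16% of all genes were higher and 7.33% lower), and 2 were higher and 1 lower in the GFP line (10.1% and 10.8%), with list medians of -0.0051 and 0.04.

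Under Dox+Auxin the lines could be compared in libraries that did not choose the genes, and 3 of the 9 were higher in SPOC than in GFP cells, with 11.2% of all genes called higher. These were Vat1l, Atp2a3 and Ppp1r14d, the last at 2.87 ± 0.647 CPM in SPOC (SD, n = 5) and 1.85 ± 0.360 CPM in GFP cells (SD, n = 4; adjusted p = 0.0092). For Vat1l and Atp2a3 the libraries did not overlap, as for 7.78% of all genes. Duox1 had a log2 fold change of -0.30 ± 0.19 (SE; adjusted p = 0.28), and the other 5 lay between 0.13 (Map1a) and 0.38 (Prph) without passing the test. Without SPOC Dox+Auxin replicate 3 the Duox1 value was -0.53 ± 0.18 (SE; adjusted p = 0.030; 0.030 to 0.60 over 14 alternatives), and without replicate 1 of that group Prph was at 0.47 ± 0.18 (SE; adjusted p = 0.0497; 0.0497 to 0.37). Xist under Dox+Auxin was 338 ± 48.2 CPM in SPOC (SD, n = 5) and 500 ± 109 CPM in GFP cells (SD, n = 4). Its part in the values of the 3 genes was not tested.

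The library labelled SPOC untreated replicate 2, in which Xist stood at 178 CPM, was the highest of the 5 untreated SPOC libraries for 8 of the 9 genes, all but Tfap2a. This was looked at after the values had been seen. Its level was 1.85 times the mean of the other 4 untreated libraries for Duox1, 2.09 times for Atp6v0a4 and 1.77 times for Atp2a3. Over all autosomal genes tested it was the highest in 18.5%, and over the 1271 called higher with Dox in the SPOC line without it, in 59.6%. Those 1271 were called on low values in the other 4 untreated libraries. That choice itself favours the library left out, so the 59.6% cannot be weighed against the 18.5%. Without that library all 9 genes rose with Dox in the SPOC line, Rasgrp2 at 0.54 ± 0.16 (SE; adjusted p = 0.025; between 2.2e-04 and 0.17 over 15 alternatives), Duox1 at 2.34 ± 0.27, Atp2a3 at 1.28 ± 0.12 and Atp6v0a4 at 1.10 ± 0.24 (SE). Against untreated, the same 5 genes as with it were higher with Dox+Auxin, Duox1 by 2.40 ± 0.27 (SE).

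**Figure D3:**
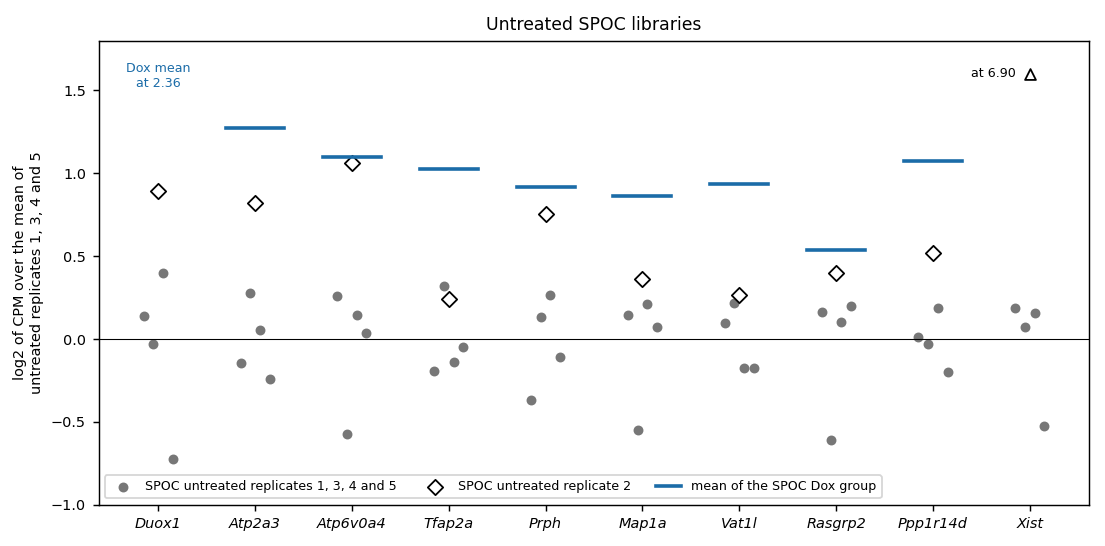
Log2 of CPM in the 5 untreated SPOC libraries over the mean of replicates 1, 3, 4 and 5 (vertical axis), for the 9 genes and Xist; open symbols are replicate 2, and blue bars the mean of the SPOC Dox group. Replicate 2 lies at 0.89 for Duox1, 1.06 for Atp6v0a4 and 0.24 for Tfap2a, while the Dox means lie at 2.36, 1.10 and 1.03; Xist in replicate 2 lies at 6.90, outside the axis.

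Ppp1r14d, Map1a and Duox1 lie in this order on chromosome 2, with 2.06 Mb between the starts of the first pair and 1.03 Mb between those of the second. Genes around the 9 were therefore counted. Of 185 tested genes that start within 500 kb of one of the 9, 18 (9.73%) were called higher with Dox in both lines, against 4.37% of all autosomal genes. None was lower in both, but the share of all autosomal genes lower in both was not counted, so that absence cannot be judged. The genes named below are among the 18 higher in both. Near Duox1 these were Shf, an adaptor protein gene that starts 53.5 kb away (0.23 ± 0.05 in SPOC and 0.56 ± 0.06 in GFP cells, SE), and Ctdspl2, a phosphatase gene 360 kb away (0.15 and 0.21). Near Map1a they were Ckmt1, a mitochondrial creatine kinase (0.61 ± 0.12 in SPOC and 0.83 ± 0.13 in GFP cells, SE), Ppip5k1 and Wdr76 (0.22 and 0.27). Near Ppp1r14d they were Spint1, a protease inhibitor gene that starts 7.46 kb away (0.43 ± 0.06 in SPOC and 0.55 ± 0.06 in GFP cells, SE), Ivd (0.13 and 0.10) and Ndufaf1 (0.13 and 0.17).

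On the other chromosomes, Cacnb3, Prkag1 and Rhebl1 near Prph were higher in both lines by 0.19 to 0.43. Mrpl49, Cdca5, Ppp2r5b and Atg2a near Rasgrp2, Trim24 and Zc3hav1 near Atp6v0a4, and Gcnt2 near Tfap2a were higher in both by 0.10 to 0.27. None of the 20 tested neighbours of Atp2a3 or the 2 of Vat1l was called higher in both lines. In the SPOC line each of the 18 had a smaller fold change than the gene it lies beside; in the GFP line the 9 were chosen as the largest, so that order was fixed by the choice.

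**Figure D4:**
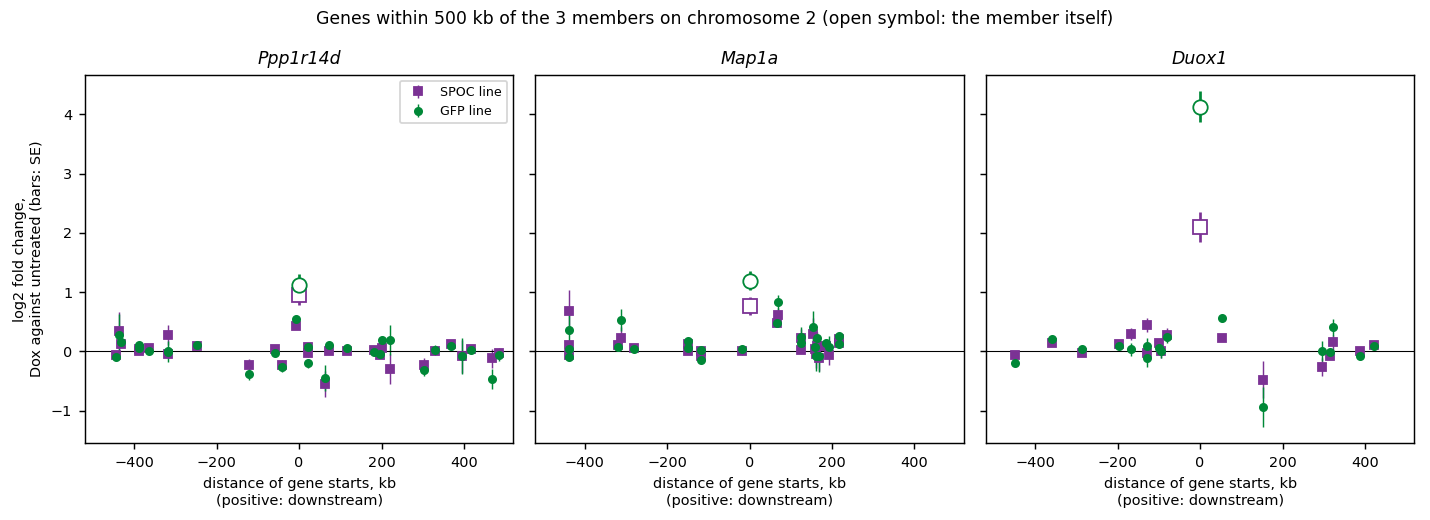
Log2 fold change with Dox against untreated (vertical axis; bars, SE) of genes that start within 500 kb of Ppp1r14d, Map1a and Duox1, by distance from that gene's start (horizontal axis, kb), in SPOC (squares) and GFP cells (circles); the open symbols at 0 are the genes themselves. Spint1 at -7.46 kb, Ckmt1 at 68.1 kb and Shf at 53.5 kb are called higher in both lines, and in the SPOC line each lies below the open square of its panel; the open circles were chosen for their height.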

How the data were processed

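Total RNA of 27 libraries was analysed. Per the labels' protocols, RNeasy-purified RNA of RIN above 9 was made into TruSeq libraries for a HiSeq2500, read from both ends. The submitters' processing notes list STAR 2.5.3a and featureCounts beside the build mm10, and also list Picard 2.18.2, DESeq2 1.18.1 and Trim Galore 0.4.4, without saying what each did. Which annotation and strand setting the authors used is not stated. The authors deposited raw counts per gene, not normalised, for 53801 genes, and these were used. Another 81 per-sample columns, called RPKM or allelic in the file headers, were not used. The labels of the libraries were checked only through Xist and Spen RNA. Names and positions came from GENCODE M21, which held 53706 of the IDs; no count row lacked a gene.

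Counts were filtered with filterByExpr to 18363 genes, normalised by TMM and fitted over all 27 libraries with a term per group by edgeR's robust quasi-likelihood method (edgeR 4.0.16 under R 4.3.3). Genes under a Benjamini-Hochberg adjusted p of 0.05, over all genes tested, were called. A standard error is the fold change over the square root of F. The 9 genes were tested in 4 comparisons: SPOC Dox against untreated, SPOC Dox+Auxin against Dox and against untreated, and SPOC against GFP Dox+Auxin. Values of the GFP Dox contrast and of those that share its libraries carry no p. Genes outside the 9 were tested in every comparison. The fit was tested on simulated counts.

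The genes, the gene lists and the tests were chosen with earlier results of these data known. The text names the 9 genes, Xist, Tsix and Spen, Duox partners, up to 4 genes of a list or neighbourhood called in both lines in the same direction with a mean of at least 1 CPM, the genes ranked next after the 9, and the 5 genes most like Duox1; predicted genes, Rik names and pseudogenes are counted only, except one that overlaps Atp6v0a4. Alternatives were DESeq2 size factors, the DESeq2 1.42.0 test, no filter on low counts, only the groups compared in the fit, the replicate number as a block, and each library left out. The design text calls the replicates biological; whether they came from separate cultures is not given, and p-values measure the spread between these libraries. Same-numbered libraries deviated together (r above 0.1) in 5 of 5 pairs of SPOC Dox with untreated, 5 of 5 of SPOC Dox+Auxin with untreated and 4 of 5 of SPOC Dox+Auxin with Dox; the pairing comes from the labels' numbers and this check alone. The lowest chi-square per gene between libraries of a group was 1.76 (SPOC Dox+Auxin replicates 1 and 2), and none was counted as a duplicate.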

Additional observations from a re-analysis of the deposited data

Results flagged for a closer look

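Of 60 groups checked (the 9 genes and Xist in 6 groups each), 4 had a library far from the others by a gap test that chance passes in about 1 group in 20. Xist stood at 178 CPM in SPOC untreated replicate 2, against 1.03 to 1.69 CPM in the other 4 libraries of that group. Duox1 stood at 4.47 CPM in GFP Dox replicate 3, against 3.64 to 3.76 CPM in the others. Tfap2a stood at 8.05 CPM in GFP Dox replicate 1, against 5.85 to 6.19 CPM in the others. Atp6v0a4 stood at 5.08 CPM in SPOC Dox replicate 2, against 2.89 to 3.26 CPM in the others, and without that library its log2 fold change with Dox was 0.62 ± 0.25 (SE; adjusted p = 0.11).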

How the results depend on the processing

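Of the 9 genes, 7 (all but Atp6v0a4 and Rasgrp2) were called higher with Dox in the SPOC line in each of 15 alternatives. In all, 876 single-gene values kept their direction and side of the threshold, 23 lost and 10 gained a call, and 9 changed sign; 256 counts stayed within 1.5 times and 8 did not; the causes were not tested. Same-numbered libraries correlated above 0.1 in every pair for SPOC Dox with untreated, SPOC Dox+Auxin with untreated and GFP Dox+Auxin with untreated. The rule of every pair was not met by SPOC Dox+Auxin with Dox (4 of 5 pairs), GFP Dox with untreated (3 of 4) or GFP Dox+Auxin with Dox (1 of 4). Whether those libraries are paired was not settled by this check. Best matches had the same number in 26 of 30 SPOC and 19 of 24 GFP cases, a hint from the data only. Taken over each line as a whole the numbers did not meet this rule, and the split by comparison was made after the calls with the block were known. With the replicate number as a block, Dox called 2042 genes higher and 2103 lower in the SPOC line and 2792 higher in the GFP line (1132, 1346 and 1851 without it), and 9 of the 9 genes rose in SPOC cells. For SPOC Dox+Auxin against Dox the block called 7 of the 9 lower, with Map1a (-0.28 ± 0.10, SE; adjusted p = 0.042) and Ppp1r14d (-0.35 ± 0.13, SE; adjusted p = 0.032) added to the 5. Over all genes, 2833 (15.4%) were called lower without the block, and the count with it stayed within 1.5 times that. The block changed no other call of the 9 within the SPOC line. With only the groups compared in the fit, 3 of the 9 were higher with Dox+Auxin than untreated in the SPOC line. The count of all genes higher there stayed within 1.5 times the 3061 (16.7%) of the main fit. In that setting 1356 genes (against 2048) were higher in SPOC than GFP Dox+Auxin cells. Leaving out 1 library, SPOC Dox+Auxin against untreated called 3 to 5 of the 9 higher, SPOC Dox 7 to 9, SPOC Dox+Auxin against Dox 4 to 6 lower, and SPOC against GFP Dox+Auxin 3 to 4 higher. Of all genes these fits called 2747 to 2967, 859 to 1272, 2403 to 2962 and 1506 to 2140, in the same order and directions. Uncalled values crossed 0 on leaving out 1 library: Duox1 with SPOC Dox+Auxin against Dox (-0.16 to 0.21), Atp2a3 (-0.049 to 0.27), Atp6v0a4 (-0.49 to 0.086) and Rasgrp2 (-0.16 to 0.062) with SPOC Dox+Auxin against untreated, and Atp6v0a4 between the lines (-0.074 to 0.34). Depth limits the genes with few reads. The lowest counts in any library were those of Duox1 (6 to 161 reads per library), Vat1l (7 to 81) and Atp6v0a4 (31 to 253), followed by Ppp1r14d (43 to 166) and Prph (43 to 200).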

Other observations

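Rapgef4, which encodes EPAC2, a cAMP-regulated Rap activator, was named after its values were seen, because it was the gene of the RasGRP and Rap list with the largest fold change in the GFP line. It averaged 0.489 ± 0.108 CPM with Dox+Auxin, 0.972 ± 0.126 CPM with Dox and 0.124 ± 0.0511 CPM untreated in GFP cells (SD, n = 4 each), on 3 to 43 reads per library. The GFP libraries chose it, so their log2 fold changes are a description: 2.93 ± 0.37 for Dox against untreated, -0.98 ± 0.30 for Dox+Auxin against Dox and 1.95 ± 0.42 for Dox+Auxin against untreated (SE). In the SPOC line it averaged 0.345 ± 0.147 CPM with Dox+Auxin, 0.395 ± 0.214 CPM with Dox and 0.198 ± 0.118 CPM untreated (SD, n = 5 each), and Dox against untreated did not pass the test (0.98 ± 0.38, SE; adjusted p = 0.087).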
